A study of Mus musculus with 5 samples.

Results

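The genes of the eukaryotic translation initiation factors, and of the proteins that bind the cap-binding factor eIF4E, were examined in erythroid cells of mouse bone marrow. Members were taken by symbol: every gene whose symbol begins with Eif and a digit from 1 to 6 and that has a probe set paired with that symbol alone, without the eIF2 kinase genes Eif2ak1 to Eif2ak4 and the sex-linked genes Eif2s3x and Eif2s3y. For a gene with several such probe sets the brightest was kept. This gave 46 members of 22180 genes measured in the same way. Of these, 43 belong to 10 groups by factor complex, and 3 were set apart because they are not known initiation factors: the pseudogene Eif1-ps3, the noncoding gene Eif2c5 and Eif4a3l1, a gene similar to Eif4a3. No probe set was paired with Eif1, Eif2s1, Eif3g, Eif4g1 or Eif4ebp3 alone, so these genes were not analysed here.

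Expression was read on 5 one-colour arrays, 2 of wild-type (WT) cells and 3 of Polg mutant cells, all of Ter119+ marrow cells of C57BL/6 background, obtained with magnetic beads by removing CD45 cells and then selecting on the erythroid surface antigen Ter119. WT mice were Polgtm1Lrsn wt/wt and mutant mice Polgtm1Lrsn mt/mt, an allele of the mitochondrial DNA polymerase gene that impairs proofreading, so that mutations build up in mitochondrial DNA. Both genotypes came from crosses in which each parent was Atg7 flox/flox and Polg wt/mt and the father carried Epo-cre as ki/wt, and the labels do not say which offspring inherited the Cre. The design text describes the mice as phlebotomized, the series title as aged, and the treatment label as none, with no age in the labels. Nothing in the labels ties an array to a separate animal, so the p-values reflect just the variation among these 5 arrays, and that variation may be technical.

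Initiation factors bring the small ribosomal subunit, the initiator tRNA and the mRNA together at the start codon. eIF2 carries the initiator tRNA and is recharged by eIF2B, eIF3 is the large scaffold on the small subunit, and the eIF4F complex of eIF4E, eIF4A and eIF4G binds the mRNA cap and opens the leader. The 4E-BPs hold eIF4E away from eIF4G until the kinase complex mTORC1 phosphorylates them, and stress kinases slow initiation by phosphorylating eIF2, which blocks eIF2B. In erythroid cells the heme-regulated kinase HRI, product of Eif2ak1, links this last step to heme and iron supply.

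The arrays stood as follows before any comparison. WT replicate 1 had a level of 5.76 for Xist, the RNA that silences an X chromosome, against 11.89 to 12.14 on the other 4 arrays, and it alone had high levels of the Y-linked genes Eif2s3y, Kdm5d and Uty (6.33 to 7.39 against 2.87 to 3.50). The labels give no sex. Differences without that array are therefore given for the members with an unadjusted p under 0.05, singly or as a range, and for other genes where they differ most. Erythroid markers were high on all arrays, with list means of 11.96 and 12.14 in WT and 11.72 to 11.80 in the Polg mutant over 11 genes, and 10 of the 11 lay lower on every Polg mutant array than on both WT arrays. Neutrophil markers had means over 16 genes of 8.17 and 7.13 in WT against 8.51, 8.91 and 7.33 in the Polg mutant. Macrophage, B cell and T cell list means lay between 4.79 and 5.76, and megakaryocyte and platelet means between 6.55 and 7.53. Ptprc, which encodes CD45, read 7.13 and 6.43 in WT cells and 7.67, 7.40 and 6.06 in mutant cells. Polg read 6.97 on every array and Atg7 7.71 to 7.74, which checks no label, since the Polg allele is not a loss of its transcript.

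Among the initiation factor genes, the higher values in the Polg mutant lay in eIF3, in the 4E-BPs and in the eIF4A and eIF4G genes. The 4E-BP gene Eif4ebp1 had the largest difference, 0.91 ± 0.15 (SE) on the log2 scale or 1.88-fold, followed by the eIF3 subunit genes Eif3c at 0.76 ± 0.15 and Eif3h at 0.75 ± 0.22. Eif4enif1, whose product carries eIF4E into the nucleus and to RNA granules, lay lower, by -0.42 ± 0.11. Genes of eIF1, eIF2, eIF4E, eIF5 and eIF6 had differences between -0.34 and 0.15. Here and below a difference is the mean deposited log2 value of the 3 Polg mutant arrays minus that of the 2 WT arrays, with the standard error of limma's moderated test.

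With limma, 0 of 46 members passed an adjusted p of 0.05 across the 22180 genes, and the lowest among the members was 0.236, for Eif4ebp2. Over all genes 0 passed in either direction as well (0% higher and 0% lower). At an unadjusted p under 0.05, 13 members (28.3%) were higher and 1 (2.17%) lower, against 4.18% and 5.33% of all genes tested. The genotypes did not overlap in 22 members, with the Polg mutant above WT in 19 and below it in 3. The same shares over all genes were 8.36% and 9.73%. Members are brighter than most genes, and dim genes were seldom called. Over the 8340 genes at a log2 of 6 or more on at least 2 arrays, 9.47% were higher and 12.5% lower at an unadjusted p under 0.05, and the groups did not overlap in 16.7% and 20.3%. Of the members, 43 met that level, and all 22 members whose groups did not overlap were among them. The median difference over all members was 0.06, against 0 over all genes tested. In bulk RNA, a change in the kinds of cell present and a change in RNA per cell cannot be told apart.

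**Figure D1:**
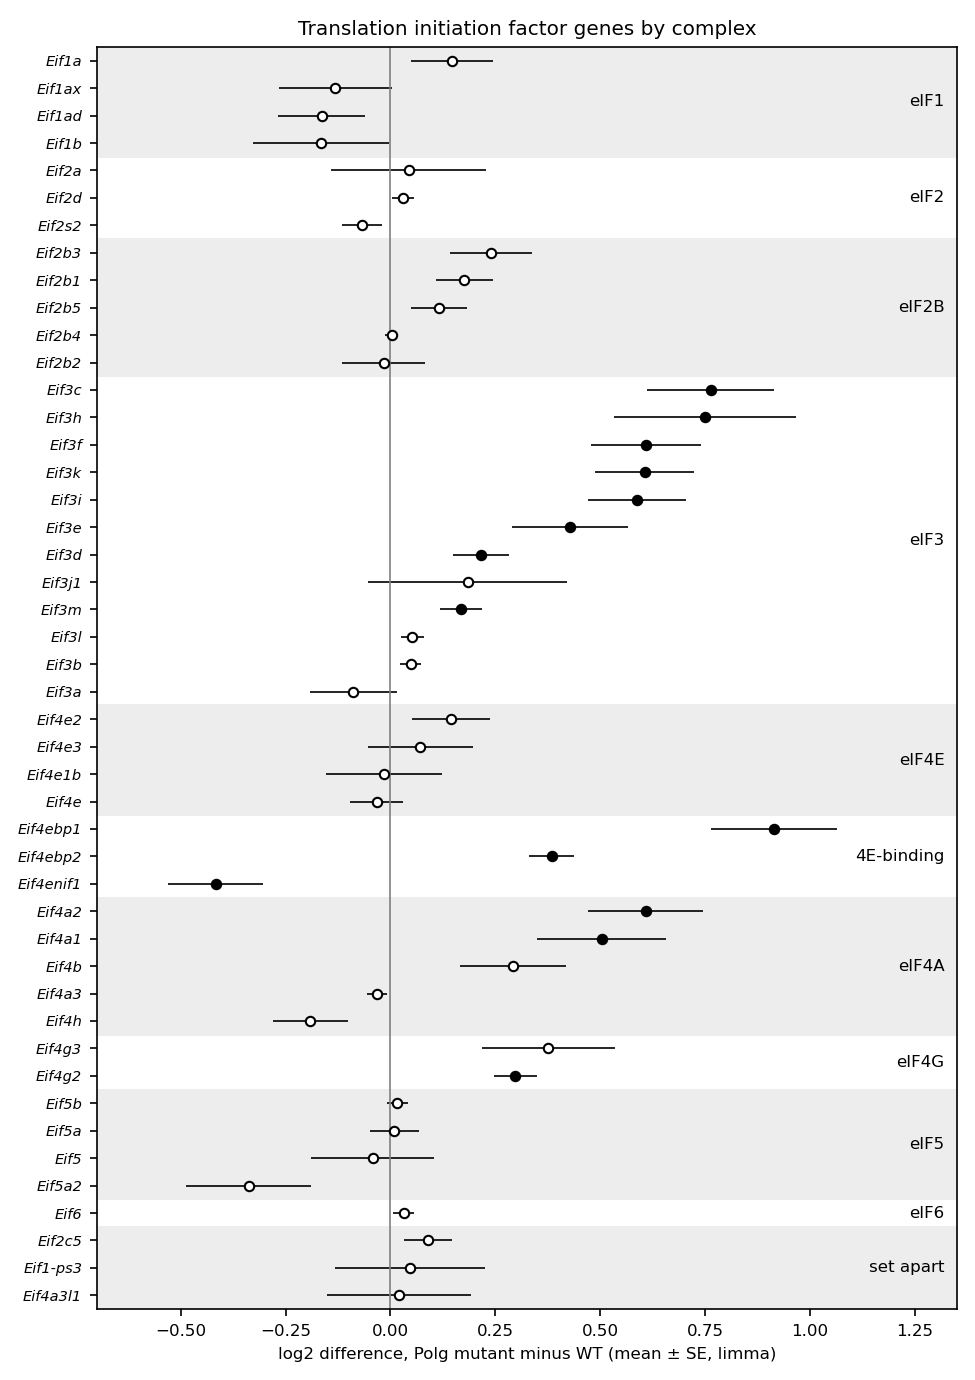
Log2 difference between Polg mutant (n = 3) and WT (n = 2) arrays for each of the 46 members, by factor complex; points are mean differences, bars are limma standard errors, and filled points have an unadjusted p under 0.05. The 13 filled points to the right of 0 lie in eIF3, the 4E-binding group, eIF4A and eIF4G, and Eif4enif1 is the 1 filled point to the left.

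**Figure D2:**
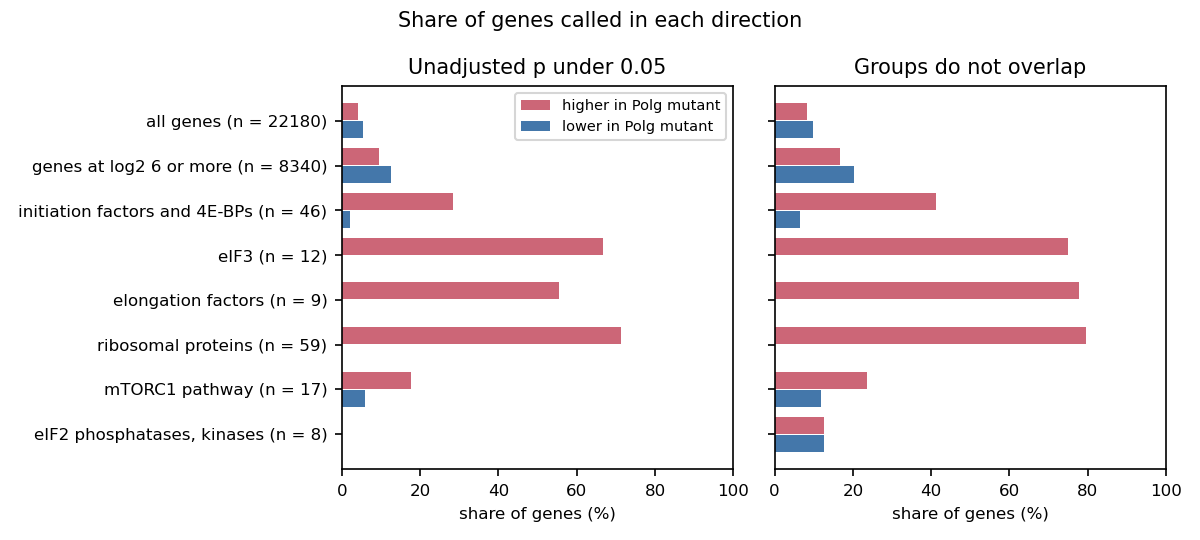
Percent of genes higher (red) or lower (blue) in the Polg mutant, at an unadjusted p under 0.05 (left) and with groups that do not overlap (right), for all genes, for brighter genes, for the members and for lists of other translation genes. Initiation factor genes stood at 28.3% higher and eIF3 at 66.7%, against 4.18% of all genes and 9.47% of the brighter ones.

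The promoters of members were searched for motifs that stress and growth factors bind, and the windows shown here are those of members that were higher at an unadjusted p under 0.05 and hold one. RefSeq promoters on GRCm38.p6, 250 bases before to 50 bases after a gene's start, matched 35 of the 46 members. The E-box CACGTG, which reads the same on both strands and is bound by MYC, MAX and related factors, was present for 9 of these 35 (25.7%) and for 2187 of 27025 genes with a promoter in the table (8.09%). It stood before Eif3f, Eif3k and Eif4a1, and these windows on the gene's strand have the motif in capitals:
Eif3f: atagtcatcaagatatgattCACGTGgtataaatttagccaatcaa
Eif3k: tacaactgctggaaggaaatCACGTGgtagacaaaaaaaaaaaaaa
Eif4a1: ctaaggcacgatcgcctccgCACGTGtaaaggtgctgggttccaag
Eif4e: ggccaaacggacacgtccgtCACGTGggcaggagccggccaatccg
The Eif3f window is chr7:108934327-108934372 on the plus strand, the Eif3k window chr7:28981907-28981952 on the minus strand, and the Eif4a1 window chr11:69672587-69672632 on the minus strand. The Eif4e window, chr3:138527184-138527229 on the plus strand, is shown for contrast because Eif4e hardly differed between the genotypes. The motif began 68 bases before the start of Eif3f, 44 before that of Eif3k, 189 before that of Eif4a1 and 64 before that of Eif4e. Eif4e had a second E-box 228 bases before its start, while the windows of Eif3f, Eif3k and Eif4a1 held 1 each. It was also found for Eif1b, Eif3a, Eif4h, Eif5a and Eif5a2, none of which was higher at an unadjusted p under 0.05. Myc itself read 8.01 and 7.83 in WT against 9.18, 8.57 and 8.73 in the Polg mutant. The core of the C/EBP-ATF response element, TGATGNAA on either strand, where N is any base, was in none of the 35 windows and in 4.51% of all genes' windows. Eif4ebp1, Eif4g2, Eif3e, Eif3h and Eif3i had no entry in the promoter table.

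The first steps of initiation showed small differences. Of the eIF1 group, whose products keep the scanning ribosome open until a start codon is found, 0 of 4 genes had an unadjusted p under 0.05 and the median difference was -0.15. Eif1a, an eIF1A gene, read 6.52 and 6.66 in WT against 6.86, 6.75 and 6.60 in the Polg mutant. Its X-linked counterpart Eif1ax read 8.35 on both WT arrays against 8.32, 8.35 and 7.99 in the Polg mutant. Eif1b, a close relative of eIF1, read 8.57 and 8.49 against 8.50, 8.51 and 8.09. In both Eif1ax and Eif1b it was Polg mutant replicate 3 that lay low, and the genotypes overlapped. Eif1ad, which encodes a protein with an eIF1A domain, read 8.84 and 8.63 against 8.49, 8.52 and 8.70, with a difference of -0.16 ± 0.10 (SE) and a limma adjusted p of 0.638.

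Genes that deliver the initiator tRNA differed little. Eif2s2, the beta subunit of eIF2, read 6.74 and 6.60 in WT and 6.60 on each Polg mutant array, so its difference of -0.07 rests on WT replicate 1. Eif2a, a separate factor that can bring the initiator tRNA without eIF2, read 8.01 and 7.83 against 8.20, 8.01 and 7.68. Eif2d, which acts after termination and in reinitiation, read 7.72 and 7.78 against 7.78, 7.78 and 7.77. None of these 3 genes separated the genotypes.

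eIF2B, the exchange factor that recharges eIF2 with GTP and the step that stress kinases block, had small differences and no gene at an unadjusted p under 0.05. Its median difference was 0.12 over 5 genes. Eif2b3, the gamma subunit, read 6.45 and 6.55 in WT against 6.66, 6.66 and 6.90 in the Polg mutant, a difference of 0.24 ± 0.10 (SE, limma adjusted p = 0.638). Eif2b1, the regulatory alpha subunit, read 6.87 and 6.86 against 7.05, 6.94 and 7.13, a difference of 0.18 ± 0.07 (limma adjusted p = 0.600). Eif2b5, the catalytic epsilon subunit, read 6.15 and 6.05 against 6.31, 6.17 and 6.17, a difference of 0.12 that was 0.07 without WT replicate 2. In these 3 genes the genotypes did not overlap, with gaps of 0.11, 0.07 and 0.02 between the nearest arrays. Eif2b2, the beta subunit, read 7.68 and 7.58 against 7.76, 7.59 and 7.49, and Eif2b4, the delta subunit, read 6.01 or 6.02 on every array.

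eIF3 held most of the higher genes. It consists of a core of PCI and MPN domain subunits (a, c, e, f, h, k, l and m) and of the further subunits b, d, g, i and j. Of its 12 measured genes, 8 (66.7%) were higher at an unadjusted p under 0.05 and 0 lower, 9 had groups that did not overlap, and the median difference was 0.32. Leaving out any 1 array kept that median between 0.30 and 0.39. Without WT replicate 1 the differences of the 8 genes ran from 0.18 for Eif3m to 0.99 for Eif3c, and Eif3c, Eif3f and Eif3i alone kept an unadjusted p under 0.05. Without WT replicate 2 they ran from 0.16 for Eif3m to 0.81 for Eif3h, and Eif3c, Eif3i and Eif3k alone kept it. With limma, adjusted p-values ran from 0.281 to 0.758. Without limma's moderation of the variance, Eif3d, Eif3e and Eif3h no longer had an unadjusted p under 0.05. In a limma fit on genes without tied values, Eif3d and Eif3m did not have it (unadjusted p = 0.125 and 0.198).

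Within the core of eIF3, Eif3c read 10.36 and 9.91 in WT against 10.93, 10.90 and 10.87 in the Polg mutant, a difference of 0.76 ± 0.15 (SE, limma adjusted p = 0.283). The Polg mutant arrays lay within 0.06 of each other and the WT arrays were 0.45 apart, with a gap of 0.51 between the genotypes. The difference was 0.99 without WT replicate 1 and 0.54 without WT replicate 2. Eif3h, an MPN subunit, read 9.72 and 9.84 against 10.88, 10.46 and 10.26, a difference of 0.75 ± 0.22 (limma adjusted p = 0.426). Eif3f, the other MPN subunit, read 11.14 and 10.99 against 11.85, 11.68 and 11.50, a difference of 0.61 ± 0.13 (limma adjusted p = 0.304). Eif3k read 9.57 and 9.80 against 10.43, 10.27 and 10.16, also 0.61 ± 0.12 (limma adjusted p = 0.281). In these 4 genes the genotypes did not overlap. Eif3e, also known as Int6, read 7.80 and 7.74 against 8.43, 8.07 and 8.08, a difference of 0.43 ± 0.14 (limma adjusted p = 0.479).

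The remaining core genes differed less. Eif3m read 8.17 and 8.15 against 8.41, 8.29 and 8.29, a difference of 0.17 ± 0.05 (SE, limma adjusted p = 0.438). Eif3l read 10.27 and 10.23 against 10.32, 10.32 and 10.27, and Eif3a, the largest subunit and the backbone of the complex, read 9.17 and 8.94 against 9.03, 9.03 and 8.85. The interval of Eif3a's difference ran from -0.39 to 0.21 (95% confidence, limma), and that of Eif3l from -0.03 to 0.13, below the 0.33 at which the interval of Eif3c began. That start was the highest among the eIF3 genes. The intervals of Eif3d, Eif3e and Eif3m began at 0.03 and overlapped those of Eif3a and Eif3l. Differences between subunits were not tested.

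Outside the core, Eif3i, a propeller-shaped subunit bound to Eif3b, read 8.95 and 9.27 in WT against 9.77, 9.70 and 9.63 in the Polg mutant, a difference of 0.59 ± 0.12 (SE, limma adjusted p = 0.283), or 0.43 when WT replicate 1 was left out. Its partner Eif3b read 10.16 and 10.13 against 10.22, 10.17 and 10.17, a difference of 0.05 ± 0.03. Eif3d, a subunit that can itself bind the cap of some mRNAs, read 9.39 and 9.30 against 9.66, 9.52 and 9.50, a difference of 0.22 ± 0.07 (limma adjusted p = 0.461). A second, much dimmer Eif3d probe set, at 4.49 to 4.60, differed by 0.05. Eif3j1, the loosely attached subunit, read 6.61 and 6.72 against 6.65, 6.64 and 7.25, and only Polg mutant replicate 3 was high. In all 8 eIF3 genes higher at an unadjusted p under 0.05, Polg mutant replicate 1 was the highest array. On Polg mutant replicates 1, 2 and 3 the neutrophil means were 8.51, 8.91 and 7.33 and the erythroid means 11.72, 11.80 and 11.75, so replicate 1 had the lowest erythroid mean; the part of either in the eIF3 values was not tested.

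**Figure D3:**
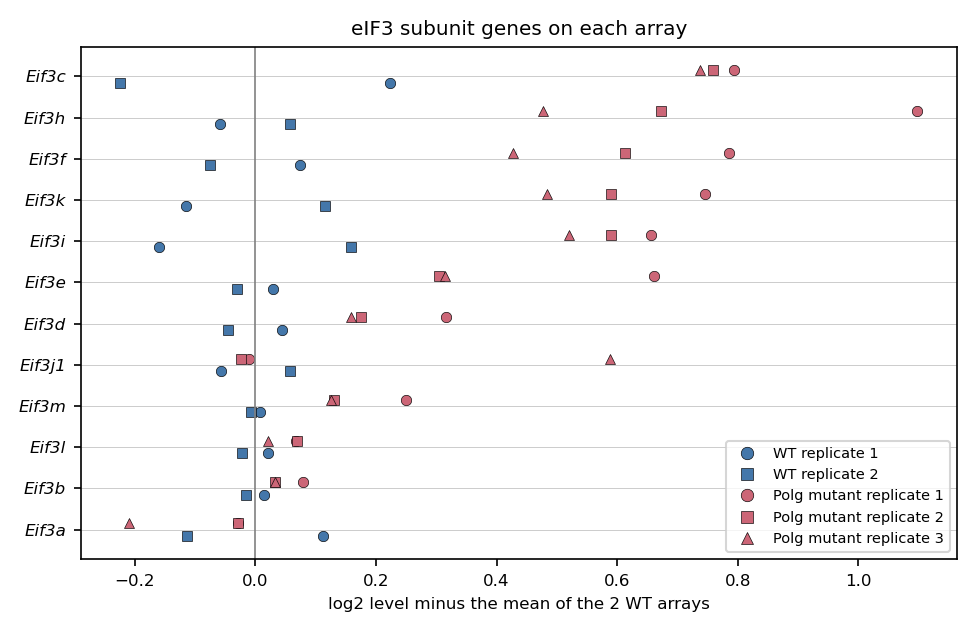
Log2 level of each eIF3 subunit gene on each array, as the difference from the mean of the 2 WT arrays; blue marks are WT, red marks Polg mutant, and the shape gives the replicate. Eif3c, Eif3h, Eif3f, Eif3k and Eif3i lie right of both WT arrays on all 3 Polg mutant arrays, while Eif3l and Eif3a overlap and Eif3b differs by 0.05.

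The cap-binding proteins themselves differed little. Eif4e, the factor that binds the cap, read 8.90 on both WT arrays against 8.90, 8.94 and 8.76 in the Polg mutant, and the interval of its difference ran from -0.21 to 0.15 (95% confidence, limma). Eif4e2, a relative that represses mRNAs, read 7.74 and 7.58 against 7.93, 7.74 and 7.74. Eif4e3 read 5.52 and 5.50 against 5.52, 5.79 and 5.44, and Eif4e1b, an oocyte form, read 3.87 on both WT arrays against 3.66, 4.07 and 3.83 in the Polg mutant, near the lower end of the scale. In this group 0 of 4 genes separated the genotypes.

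All 3 measured genes of eIF4E-binding proteins had an unadjusted p under 0.05. Eif4ebp1, which encodes 4E-BP1 and is known as a target of the stress factor ATF4, read 8.997 and 8.694 in WT against 9.93, 9.75 and 9.60 in the Polg mutant. All Polg mutant arrays lay above both WT arrays, with a gap of 0.61, and the difference of 0.91 ± 0.15 (SE) had a 95% interval from 0.49 to 1.34 and a limma adjusted p of 0.249. It was 1.07 without WT replicate 1 and 0.76 without WT replicate 2. Atf4 itself read 8.41 and 8.12 against 8.33, 8.56 and 8.41. Eif4ebp2, which encodes 4E-BP2, read 9.77 and 9.81 against 10.25, 10.10 and 10.18, a difference of 0.38 ± 0.05 or 1.30-fold (limma adjusted p = 0.236), and 0.36 without WT replicate 1. Eif4enif1 read 9.26 and 9.07 against 8.60, 8.87 and 8.78, below WT on every Polg mutant array, with a limma adjusted p of 0.400. Its difference was -0.32 without WT replicate 1 and -0.51 without WT replicate 2. Without Polg mutant replicate 3 it no longer had an unadjusted p under 0.05 with limma.

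Relative to Eif4e on the same array, the difference of Eif4ebp1 was 0.95 and that of Eif4ebp2 0.42. An exact two-sided permutation test gave p = 0.1 for each, which is the smallest value that 5 arrays in groups of 2 and 3 can give. These pairs were chosen with the values of their genes known, and no p in this design can pass 0.05, so they are given as a description. Levels of mRNA do not show how much 4E-BP is phosphorylated.

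Both helicase genes of eIF4F were higher at an unadjusted p under 0.05. Eif4a1, the main eIF4A, read 10.67 and 10.35 in WT against 11.12, 10.82 and 11.10 in the Polg mutant, a difference of 0.50 ± 0.15 (SE, limma adjusted p = 0.456), or 0.66 without WT replicate 1 and 0.34 without WT replicate 2. Its second probe set, at 7.67 to 7.84, differed by 0.08. Eif4a1 has processed pseudogenes whose RNA its probes could also detect. Eif4a2, the other cytoplasmic eIF4A, read 7.15 and 7.03 against 7.71, 7.89 and 7.50, a difference of 0.61 ± 0.14 (limma adjusted p = 0.319). Its dimmer probe sets differed by 1.24 and 0.40, so all 3 pointed the same way. Leaving out WT replicate 1 gave 0.67 for the brightest.

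Other genes of the eIF4A group were mixed. Eif4a3, which belongs to the exon junction complex on spliced mRNA, read 6.27 and 6.32 against 6.24, 6.27 and 6.27. Eif4b, which stimulates the helicase, read 10.42 and 10.12 against 10.70, 10.52 and 10.47, a difference of 0.29 ± 0.13 (SE, limma adjusted p = 0.638). It was 0.44 without WT replicate 1 and 0.15 without WT replicate 2. Eif4h, a related helper, lay the other way at 10.38 and 10.16 against 9.99, 10.12 and 10.12, a difference of -0.19 ± 0.09 that was -0.08 without WT replicate 1.

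Of the eIF4G scaffolds, Eif4g2, also called DAP5, which lacks the site for eIF4E and serves cap-independent initiation, read 10.62 and 10.50 in WT against 10.85, 10.82 and 10.91 in the Polg mutant. Its difference was 0.30 ± 0.05 (SE, limma adjusted p = 0.257), with a gap of 0.20 between the genotypes, and was 0.36 without WT replicate 1. Eif4g3, a scaffold that does bind eIF4E, read 7.27 and 6.87 against 7.57, 7.45 and 7.32, a difference of 0.38 ± 0.16 (limma adjusted p = 0.638). For Eif4g3 the WT arrays were 0.40 apart and the gap to the Polg mutant was 0.05, so that its difference was 0.58 without WT replicate 1 and 0.17 without WT replicate 2.

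**Figure D4:**
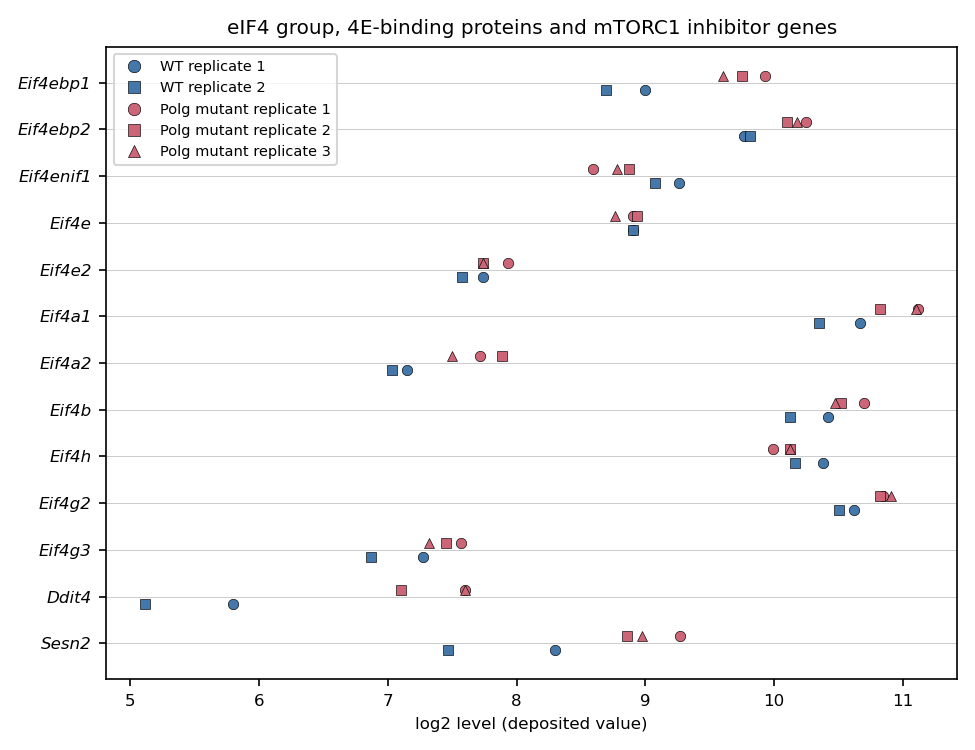
Deposited log2 level on each array for genes of the eIF4 group and for the mTORC1 inhibitor genes Ddit4 and Sesn2; blue marks are WT, red marks Polg mutant, and the shape gives the replicate. Eif4ebp1, Eif4ebp2, Eif4a1, Eif4a2, Eif4g2, Ddit4 and Sesn2 lie further right on all 3 Polg mutant arrays, Eif4enif1 further left, and Eif4e overlaps.

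The late factors were near equal. Eif5, which triggers GTP hydrolysis on eIF2 at the start codon, read 12.27 and 12.19 in WT against 12.27, 12.34 and 11.94 in the Polg mutant. Eif5b, the GTPase that joins the large subunit, read 6.99 on both WT arrays against 6.99, 6.99 and 7.04 in the Polg mutant. Eif6, which keeps free large subunits from joining early, read 9.05 and 9.02 against 9.05, 9.10 and 9.05. For these 3 genes the difference was at most 0.04 in size. Eif5a, which carries hypusine and acts mainly in elongation, read 9.64 and 9.58 against 9.69, 9.64 and 9.53. Its relative Eif5a2 read 8.67 and 8.40 against 8.39, 8.05 and 8.15, below WT by -0.34 ± 0.15 (SE, limma adjusted p = 0.638) with a gap of -0.01, and by -0.20 without WT replicate 1. Eif5a2 relative to Eif5a differed by -0.35, with an exact permutation p of 0.1, again the smallest possible. The 3 genes set apart had differences of 0.02 to 0.09.

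The number of members at an unadjusted p under 0.05 depended on the arrays. It was 13 higher with all arrays and smaller whenever 1 array was left out. The share of all genes called higher moved as well, from 4.18% with all arrays to between 3.23% and 3.74% without 1 Polg mutant array. With 1 WT array left out that share rose instead, while the number of higher members fell. Eif3c, Eif3i, Eif4ebp1, Eif4ebp2 and Eif4g2 kept an unadjusted p under 0.05 whichever array was omitted. When a WT array was omitted, the spread came from the Polg mutant arrays alone, and the single WT array was taken to share it. In those fits Eif3c differed by 0.99 without WT replicate 1 and by 0.54 without WT replicate 2. Eif2s2, which had the same value on every Polg mutant array, differed by -0.14 without WT replicate 2. Eif2s2 differed by 0.00 without WT replicate 1.

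Genes that act beside the initiation factors were read from lists chosen with earlier results of these data known. Of 9 elongation factor genes, 5 were higher at an unadjusted p under 0.05 and 0 lower, with a median difference of 0.31. Eef1b2, the exchange factor of eEF1, read 9.63 and 9.49 in WT against 10.64, 10.38 and 10.36 in the Polg mutant, and Eef2, the translocase, read 12.67 and 12.61 against 12.97, 12.88 and 12.99. Eef1g and Eef1a1 were higher by 0.33 and 0.31, and Eef1a1 by 0.19 without WT replicate 2. Of 59 cytosolic ribosomal protein genes, 42 were higher and 0 lower, with a median of 0.58, above the 0.32 of eIF3, though the difference between these medians was not tested. Of 9 termination and recycling genes, 1 was higher, Gspt1, the release factor eRF3a, at 0.49 ± 0.15 (SE), or 0.32 without WT replicate 2. Of 7 genes of poly(A)-binding proteins and partners, Paip2 was higher by 0.18 and Paip2b lower by -0.18, and of 4 hypusine and diphthamide enzyme genes 0 were called.

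Among genes that act upstream of the 4E-BPs, Ddit4 and Sesn2 were higher. In the mTORC1 list, 3 of 17 genes were higher and 1 lower at an unadjusted p under 0.05, with a median of -0.06. Differences were positive in 5 of the 17 and negative in 12. The other sestrin genes, Sesn1 and Sesn3, differed by -0.28 and -0.16, neither at an unadjusted p under 0.05. Ddit4, which encodes the mTORC1 inhibitor REDD1, read 5.80 and 5.11 in WT against 7.60, 7.11 and 7.60 in the Polg mutant, a difference of 1.98 ± 0.30 (SE, limma adjusted p = 0.238) that was 2.32 without WT replicate 1. Sesn2, whose product senses leucine and restrains mTORC1, read 8.30 and 7.46 against 9.27, 8.86 and 8.98, a difference of 1.15 ± 0.31 (limma adjusted p = 0.397). The Sesn2 difference depended on the WT arrays, at 1.57 without replicate 1 and 0.73 without replicate 2. Tsc1, a brake on mTORC1, lay lower by -0.31 and Rps6, the substrate of S6 kinase, higher by 0.29, or 0.17 without WT replicate 2. Rps6 is a ribosomal protein gene and is also counted among the higher cytosolic ribosomal protein genes. Of 10 genes that modify eIF4F, 0 were higher and 1 lower, Gigyf2, a partner of Eif4e2, at -0.13, or -0.07 without WT replicate 1.

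The genes that control phosphorylation of eIF2 gave no call in 8. The phosphatase subunit genes Ppp1r15a and Ppp1r15b differed by -0.30 ± 0.15 (SE) and -0.24 ± 0.13. The kinase genes Eif2ak1, Eif2ak2, Eif2ak3 and Eif2ak4 differed by -0.18, 0.13, -0.04 and 0.13. Nck1, an adaptor that recruits phosphatase, differed by -0.07 and Impact, an inhibitor of the kinase GCN2, by 0.21. Without WT replicate 1 the differences of these 8 genes lay between -0.14 and 0.27, with Ppp1r15a at -0.13, and without WT replicate 2 between -0.48 and 0.15. Each of these 8 genes had a limma adjusted p between 0.638 and 0.682.

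Marker lists of cell types had the following values. All 11 erythroid markers were lower in the Polg mutant, with a median of -0.31, and 5 had an unadjusted p under 0.05, so the higher initiation factor genes stood beside lower erythroid markers. The 16 neutrophil markers had a median of 0.63, 13 of them higher, and in 0 did the groups not overlap. All 7 B cell markers were lower, with a median of -0.29 and none at an unadjusted p under 0.05. Of 6 megakaryocyte and platelet markers 5 were lower, with a median of -0.21. Gp9, a subunit of the platelet receptor for von Willebrand factor, was the 1 of them at an unadjusted p under 0.05, at 10.42 and 10.41 in WT against 8.84, 9.23 and 9.11 in the Polg mutant. The 11 macrophage and 7 T and NK cell markers had medians of 0.07 and 0.00. WT replicate 2 and Polg mutant replicate 3 had the lowest neutrophil means, 7.13 and 7.33, and on these arrays Eif4ebp1 read 8.69 and 9.60 and Eif3c 9.91 and 10.87. The part of erythroid stage and of other cells in the members' differences was not tested.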

How the data were processed

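The values are the authors' deposited log2 levels of 41345 probe sets, with 1 column for each of the 5 arrays. RMA and Partek 6.5 are named per the submitters' processing notes, without role or order, and the range of the values gave the log2 scale. The genome build is not given in the sources used here, and no signal over background was used. The small number of arrays limits the precision. Array medians lay between 5.10 and 5.13. Values were used as deposited.

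Probe sets were named through the platform table: 23521 had 1 symbol, 1814 several and 16010 none. limma 3.58.1 in R 4.3.3 fitted genotype over the 5 arrays for 22180 genes (eBayes, no trend, two-sided, Benjamini-Hochberg over all genes, threshold 0.05), and the fit was checked on data with known differences. Of the genes, 67.9% (19 of the 46 members) had the same value on at least 2 arrays. limma estimated 0.730 prior degrees of freedom and a prior SD of 0.0376. The members and lists were chosen with earlier results of these data known. Every member may be named. Values on all arrays were given for a set list and for up to 4 members per group of smallest p, with others added. Up to 4 genes of each other list were named by p, with Sesn1, Sesn3 and all eIF2 phosphatase and kinase genes added. Alternatives changed the scaling, the filter, the moderation, the probe set, the arrays and the block. Promoters were from RefSeq.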

Additional observations from a re-analysis of the deposited data

How the results depend on the processing

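Alternatives were median centring, quantile normalization again, a filter at log2 6 on 2 arrays, no moderation, a variance trend, the mean of a gene's probe sets, a replicate block, omission of each array and, chosen after seeing the data, a fit on untied genes. Across these, no member with an unadjusted p under 0.05 changed direction, and 15 other members changed direction or fell to 0. Higher members numbered 12 after median centring, 15 after quantile normalization, 9 without moderation, 11 in the untied fit and 10 with the replicate block. These were not all the same genes. The shares of all genes called higher in these settings were, in that order, 4.17%, 5.09%, 2.90%, 10.3% and 4.91%. The untied fit held 27 members among 7112 genes, so its count is not out of 46. With the block, Eif3c, Eif3e, Eif3h, Eif3i, Eif3k, Eif3m and Eif4ebp2 lost an unadjusted p under 0.05, and Eif2a, Eif2b5, Eif4b and Eif4e2 gained it. Among genes lower in the Polg mutant, Eif4enif1 lost it with the block and Eif5a2 gained it. Of the eIF3 genes called in the main fit, Eif3d and Eif3f alone kept it there. Quantile normalization gave 2 lower members and medians of 0.059 for eIF6 and -0.020 for the eIF4F modifiers. The filter gave medians of -0.047 for the eIF4F modifiers, -0.11 for the eIF2 phosphatases and kinases and 0.69 for ribosomal proteins. Replicates 1 and 2 are numbered in both genotypes, and same-numbered arrays deviated from their genotype means with correlations of 0.19 and -0.20. The deviations of the 2 WT arrays are equal and opposite by construction, so these correlations cannot show whether the numbers pair arrays. With the replicate block, which drops Polg mutant replicate 3, the median was 0.13 over all members, -0.023 for eIF1 and -0.029 for the eIF4F modifiers.

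Leaving out 1 array in turn gave 7 to 11 higher and 0 to 2 lower members at an unadjusted p under 0.05, 0 to 1 higher and 0 to 1 lower past the adjusted threshold, and 3 to 7 members with groups apart and lower. Over all genes, 3.23% to 3.74% were higher at an unadjusted p under 0.05 without 1 Polg mutant array, against 4.18% with all arrays. That share rose without 1 WT array. Groups apart and higher also became more common over all genes whichever array was omitted, and most so without 1 WT array. The member counts therefore cannot be compared across these fits. Medians ran from 0.061 to 0.13 over all members, -0.17 to -0.023 for eIF1, -0.068 to 0.033 for eIF2, 0.067 to 0.17 for eIF2B and 0.21 to 0.47 for eIF4G. They ran from 0.19 to 0.32 for elongation factors, 0.036 to 0.15 for poly(A)-binding proteins, -0.053 to -9.0e-05 for the eIF4F modifiers and -0.0033 to 0.19 for hypusine and diphthamide enzymes. The counts of all genes past the adjusted threshold depend on the WT arrays: 713 higher and 1068 lower when WT replicate 1 was omitted, 511 and 413 when WT replicate 2 was, 73 and 41 in the untied fit, 8 and 1 after quantile normalization, 6 and 5 with the filter and 4 and 1 without moderation, against 0 and 0. With 2 WT arrays, an adjusted p above the threshold does not show that a gene is equal between the genotypes. Tied values bear on the spread of the genes that hold them, and array signal over background was not available to set a limit on dim genes such as Eif4e1b.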
